A study of Mus musculus with 9 samples.

Results

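This account covers 10 genes of the AP-1 and immediate early response in Lgr5-GFP+ intestinal stem cells (ISCs) of the mouse small intestine, out of 57180 gene identifiers in the count table. They are the Fos family members Fos, Fosb and Fosl1, the Jun family members Jun, Junb and Jund, the zinc finger transcription factor gene Egr1, the bZIP factor gene Atf3, the phosphatase gene Dusp1 and the RNA-binding protein gene Zfp36. They were chosen by name, and all 10 were found in GENCODE M21 and passed the filter on low counts. The study set KANSL1-KO mice against KANSL1-WT mice, with 3 libraries in each of 3 groups. KO day 4 and KO day 3 came from Lgr5-EGFP-CreERT2; Kansl1 f/f mice given daily tamoxifen for 4 or 3 days, and control mice, labelled KANSL1-WT, were given corn oil. In such mice the Lgr5 promoter drives both GFP, on which the cells were sorted, and the Cre recombinase that tamoxifen switches on, so deletion is limited to Lgr5-expressing cells and their progeny. Tamoxifen went only to KO mice, so the effect of the drug and that of the deletion cannot be told apart. The sources used here give neither age nor whether the controls carried the same floxed alleles.

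Immediate early genes are transcribed within minutes of a growth factor, stress or damage signal, because their promoters are already bound by factors that MAP kinases activate, among them serum response factor with its ELK partners and the CREB and ATF proteins. Fos and Jun proteins pair through leucine zippers to form AP-1, which binds DNA and switches on later genes; Jun proteins also pair with one another, while Fos proteins need a partner. DUSP1, which removes phosphate from MAP kinases, and ZFP36, which speeds the decay of short-lived mRNAs, belong to the same early wave and limit it. In the intestinal epithelium this pathway is known for responses to growth signals and injury, and in many tissues these genes are also induced while cells are being dissociated.

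The promoters of 4 genes are shown first because Fos, Jun, Dusp1 and Zfp36 carry the main result, a lower level at KO day 4 under every alternative tried. Each is the stretch of bases before the gene's start in RefSeq's annotation of GRCm38.p6, written 5′ to 3′ on the gene's strand, with matches to the motifs searched in capitals: TGACG (the core of the cAMP response element, bound by CREB and ATF proteins), TGACGTCA (that element in full, which contains TGACG), TGACATCA (the variant known from the Jun promoter, bound by Jun and ATF2), TGANTCA (the AP-1 site), the CArG box of serum response factor, and TATAAA.
Fos, chr12:85473640-85473889, plus strand: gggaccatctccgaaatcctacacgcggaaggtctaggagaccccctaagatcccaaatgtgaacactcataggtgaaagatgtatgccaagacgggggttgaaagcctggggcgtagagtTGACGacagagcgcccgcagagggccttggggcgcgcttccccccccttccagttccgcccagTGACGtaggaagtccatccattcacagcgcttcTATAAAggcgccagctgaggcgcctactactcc
Jun, chr4:95052223-95052472, minus strand: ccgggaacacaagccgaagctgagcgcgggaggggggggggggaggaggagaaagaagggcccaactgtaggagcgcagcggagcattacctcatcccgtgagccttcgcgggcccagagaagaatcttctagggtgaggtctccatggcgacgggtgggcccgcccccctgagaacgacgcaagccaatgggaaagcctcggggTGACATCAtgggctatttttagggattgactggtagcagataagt
Dusp1, chr17:26508473-26508722, minus strand: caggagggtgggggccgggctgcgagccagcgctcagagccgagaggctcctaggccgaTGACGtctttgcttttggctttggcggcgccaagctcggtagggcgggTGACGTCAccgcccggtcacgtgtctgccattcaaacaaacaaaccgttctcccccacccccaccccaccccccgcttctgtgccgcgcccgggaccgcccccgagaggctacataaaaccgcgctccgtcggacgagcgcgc
Zfp36, chr7:28379229-28379478, minus strand: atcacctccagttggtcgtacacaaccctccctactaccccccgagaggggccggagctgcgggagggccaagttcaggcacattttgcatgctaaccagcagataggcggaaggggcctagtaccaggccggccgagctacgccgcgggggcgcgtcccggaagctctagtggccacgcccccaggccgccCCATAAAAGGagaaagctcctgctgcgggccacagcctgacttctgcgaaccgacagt
The capitals in the Fos promoter are TGACG at 129 and at 66 bases before the start and TATAAA at 33. In the Jun promoter they are TGACATCA at 45 bases before the start. The Dusp1 promoter has a TGACG at 191 bases and a full TGACGTCA at 143 bases before the start, and the Zfp36 promoter has a CArG box at 58. Both strands were searched in 32841 promoter windows of the same length, which include those of 8 of the 10 genes. TGACG was found in 5 of the 8 (Fos, Fosb, Junb, Dusp1 and Atf3), against 17.8% of all windows. TGACGTCA was in 1.55% of all windows, TGACATCA in 2.93%, the CArG box in 1.47% and TATAAA in 12.4%, each matching 1 of the 8, while TGANTCA was in 6.75% and matched 0 of the 8. The 4 promoters share no single motif of this search, which covered only the 250 bases before each start. Motifs farther upstream were not looked for. A match is a description of letters and not of binding.

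The libraries held between 8400458 and 21484679 counts. Mitochondrially encoded genes took 66.9% to 72.1% of the counts at KO day 4, 19.0% to 32.4% at KO day 3 and 16.4% to 25.8% in controls, so nuclear genes had 3115374 to 5614186 counts in KO day 4 libraries, 6808115 to 14905644 in KO day 3 libraries and 9996919 to 13980785 in control libraries. Kansl1 stood at 2.93, 5.09 and 8.96 CPM (counts per 1e+06 of TMM-scaled library size) at KO day 4, at 2.81, 2.99 and 2.55 CPM at KO day 3 and at 4.46, 11.4 and 9.83 CPM in controls. It was below every control at KO day 3 but overlapped them at KO day 4, and passed the test at neither time; which exons were deleted is not given in the sources used here, so its reads may lie outside the deleted part. The 14 ISC markers were detected in every library, and their summed level was 3297 to 8473 CPM of nuclear counts at KO day 4, 13757 to 20129 at KO day 3 and 20598 to 24816 in controls. The 12 mast cell markers summed to 466, 857 and 1294 CPM of nuclear counts at KO day 4 and to 197, 22.8 and 61.5 at KO day 3, against 0.452, 0.644 and 0.10 in controls, where 8 to 11 of the 12 were at 0 and the defining Fcer1a and Ms4a2 had no read. The 10 Paneth cell markers summed to 103816 to 137817 CPM of nuclear counts at KO day 4, 27944 to 44297 at KO day 3 and 18365 to 44654 in controls. The 9 tuft cell markers summed to 137 to 361 CPM of nuclear counts at KO day 4, 12.9 to 25.9 at KO day 3 and 8.23 to 10.9 in controls, and the 11 enteroendocrine markers to 406 to 646, 106 to 185 and 49.6 to 160.0 in the same order of groups. The 8 goblet markers summed to 3005 to 5067 CPM of nuclear counts at KO day 4, 1743 to 2399 at KO day 3 and 1678 to 2093 in controls, and the 12 immune markers to 66.6 to 165, 7.99 to 46.7 and 3.40 to 8.96, with 6 to 8 of the 12 at 0 in controls. Within their own groups, KO day 4 replicate 3 (mean r over genes of 0.900) and KO day 3 replicate 1 (0.939) correlated least. KO day 4 replicates 1 and 2 were at 0.924 and 0.927, KO day 3 replicates 2 and 3 at 0.96 and 0.958, and the controls at 0.977 to 0.979. Results are given without KO day 4 replicate 3 and KO day 3 replicate 1 where that matters. In sorted bulk RNA, fewer cells of a type and less RNA per cell cannot be told apart.

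Most of the 10 genes stood lower in KO cells, with 2 exceptions at KO day 4. At KO day 4, 6 of the 10 fell (Fos, Fosb, Jun, Egr1, Dusp1 and Zfp36) and 2 rose (Jund and Fosl1; by library size alone 0 did), against 11.5% of all 13405 tested genes called lower and 11.1% called higher. After 3 days Fos alone fell and 0 of the 10 rose, against 0.298% of tested genes called lower and 0.142% called higher. Calls are by edgeR's quasi-likelihood test at an adjusted p under 0.05, and each fold change is a log2 value given with its standard error (SE). In nuclear counts the 10 genes together made up 627, 718 and 692 CPM at KO day 4 and 833, 792 and 844 CPM at KO day 3, against 1872, 2142 and 1299 CPM in controls. All 6 KO libraries lay below the lowest control in this sum. The median log2 fold change of the 10 was -0.87 at KO day 4 and -0.97 at KO day 3, beside medians over all tested genes of -0.06 and -0.02. The day 4 split rests on how libraries are scaled. By library size alone, mitochondrial reads included, 9 of the 10 were called lower and 0 higher, and per nuclear count 7 and 1. The median over all tested genes was then -1.95 by library size alone and -0.55 per nuclear count. Most genes thus stood lower by library size alone, and the 9 of 10 is not particular to these genes. Over the main fit and all alternatives except leaving out 1 library, 1212 to 10769 of all genes were called lower and 288 to 2085 higher. Markers of several cell types moved in the same KO day 4 libraries. With TMM scaling, 9 of 9 mast cell, 10 of 10 Paneth, 9 of 11 enteroendocrine, 5 of 7 tuft, 5 of 7 immune and 5 of 8 goblet markers tested rose, and 9 of 14 ISC markers fell. The goblet list also held 1 marker called lower, and the 1 stromal marker tested rose. Of 9 enterocyte markers tested, 2 were called lower and 2 higher. The part of these cell types in these results was not tested.

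**Figure D1:**
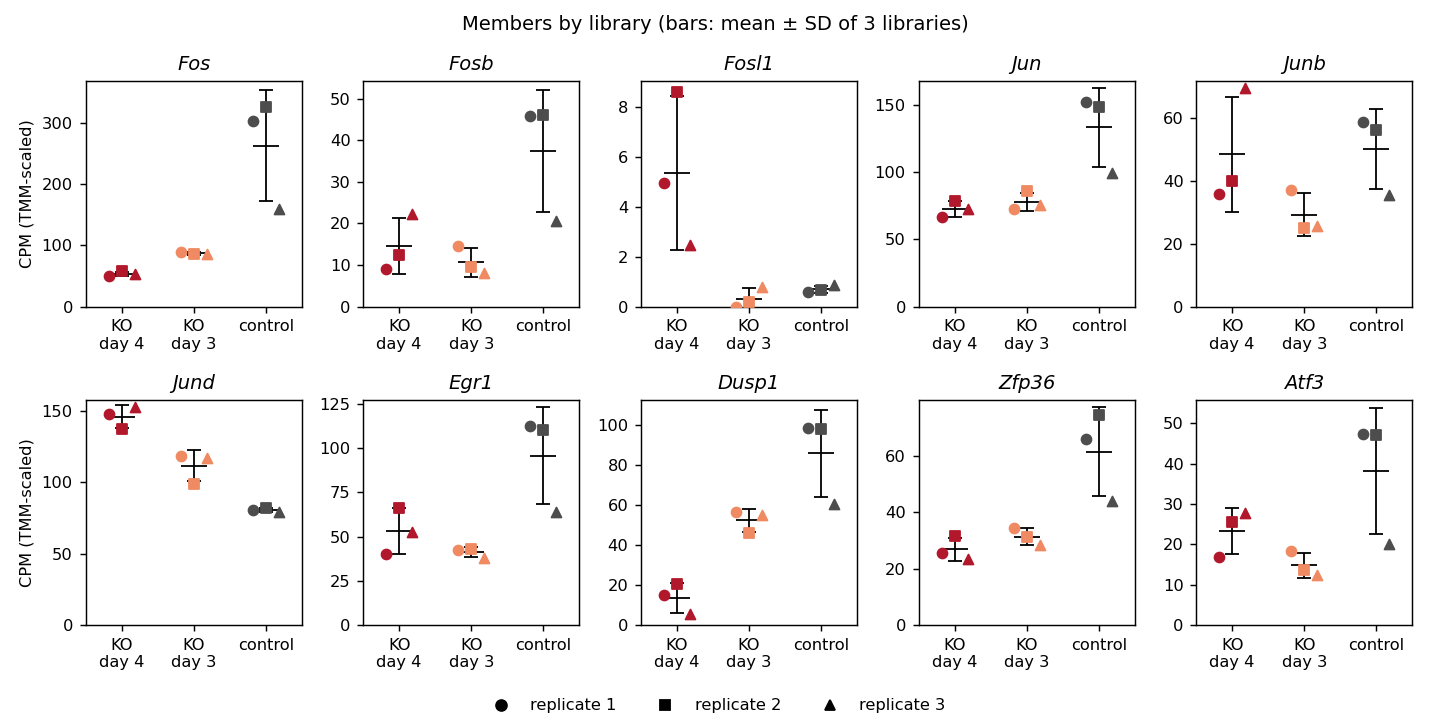
Level of each of the 10 genes, in CPM of TMM-scaled library size on an axis from 0, in KO day 4, KO day 3 and control libraries (points, shaped by replicate number), with bars for the mean ± SD of 3 libraries. Fos, Jun, Dusp1 and Zfp36 lie below all controls at both KO times, Jund lies above them (with this scaling; by library size alone its day 4 difference changes sign), and Fosl1 stands out at KO day 4.

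Fos, the prototype of its family, had the larger fall of the 2 Fos family genes that fell at KO day 4. Fos (ENSMUSG00000021250, chr12:85473890-85477273, plus strand, GRCm38) had 50.6, 57.2 and 53.7 CPM at KO day 4 and 89.6, 85.6 and 85.3 CPM at KO day 3, against 303, 326 and 159 CPM in controls. The KO libraries of each time lay close together, and even the lowest control was well above all 6. Fos fell by 2.29 on the log2 scale at KO day 4 (SE 0.24, adjusted p = 0.00028 by edgeR) and by 1.60 at KO day 3 (SE 0.23, adjusted p = 0.020 by edgeR). The day 4 call was kept in all 20 alternatives. The day 3 call was lost without KO day 3 replicate 2 (adjusted p = 0.061 by edgeR), KO day 3 replicate 3 (0.10), control replicate 1 (0.081) or control replicate 2 (0.11). Between the KO times the log2 difference, day 4 minus day 3, was -0.69 (SE 0.23, adjusted p = 0.072 by edgeR), with the 3 day 4 libraries below the 3 day 3 libraries.

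Fosb (ENSMUSG00000003545, chr7:19302696-19310051, minus strand), a close relative of Fos, had 9.02, 12.4 and 22.2 CPM at KO day 4 and 14.5, 9.45 and 7.94 CPM at KO day 3, against 45.7, 45.9 and 20.6 CPM in controls. At KO day 4 its highest library passed the lowest control, while at KO day 3 all libraries were below all controls. Fosb fell at KO day 4 (log2 fold change -1.38, SE 0.40, adjusted p = 0.029 by edgeR). That call was lost without KO day 4 replicate 1 (adjusted p = 0.085 by edgeR), KO day 4 replicate 2 (0.089), control replicate 1 (0.094) or control replicate 2 (0.098). Its KO day 3 log2 fold change of -1.83 (SE 0.39) had an adjusted p of 0.073 by edgeR, and 0.033 without KO day 4 replicate 3, a library of the other KO group that shares the estimate of the spread.

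Fosl1 encodes FRA-1, a Fos protein without the transactivation domain of FOS. It was nearly silent in controls. Fosl1 (ENSMUSG00000024912, chr19:5447547-5455946, plus strand) had 4.92, 8.59 and 2.46 CPM at KO day 4 (42, 54 and 11 reads) and 0, 0.173 and 0.780 CPM at KO day 3 (0, 4 and 22 reads), against 0.582, 0.661 and 0.853 CPM in controls (15, 20 and 19 reads). All KO day 4 libraries were above all libraries of the other groups. Fosl1 rose at KO day 4 against control (log2 fold change 2.93, SE 0.86, adjusted p = 0.032 by edgeR). The ratio of pooled levels, KO day 4 over control, was 8.04 with a counting interval of 5.75 to 11.4, which covers counting error only. The call was lost without KO day 4 replicate 1 (adjusted p = 0.055 by edgeR), KO day 4 replicate 2 (0.12), or control replicate 1 (0.11), replicate 2 (0.11) or replicate 3 (0.087), and scaled by library size alone the log2 fold change was 1.05 (adjusted p = 0.27 by edgeR). Of the 2033 exon bases of Fosl1, 1163 overlap Ccdc85b on the opposite strand, and without a known strand setting their reads cannot be told apart; Ccdc85b itself had 269, 174 and 128 reads at KO day 4, 244, 323 and 311 at KO day 3 and 499, 360 and 268 in controls.

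The Jun family split. Jun and Jund moved in opposite directions at KO day 4 (by library size alone both stood lower), and Junb was not called. Jun (ENSMUSG00000052684, chr4:95049034-95052222, minus strand), the partner of Fos in classical AP-1, had 66.8, 78.4 and 72.8 CPM at KO day 4 and 72.8, 85.8 and 75.7 CPM at KO day 3, against 153, 149 and 99.5 CPM in controls. The KO times overlapped each other and both lay below the lowest control. Jun fell at KO day 4 (log2 fold change -0.88, SE 0.18, adjusted p = 0.0067 by edgeR), a call kept in all 20 alternatives. Its log2 fold change at KO day 3 was -0.77 (SE 0.18, adjusted p = 0.085 by edgeR).

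Junb (ENSMUSG00000052837, chr8:84974484-84978718, minus strand), a Jun protein with weaker transactivation that can hold Jun in check, had 35.9, 40.1 and 69.4 CPM at KO day 4 and 37.1, 25.1 and 25.6 CPM at KO day 3, against 58.7, 56.2 and 35.5 CPM in controls. The groups overlapped at both times. Its log2 fold change was -0.06 at KO day 4 (SE 0.28, adjusted p = 0.91 by edgeR) and -0.78 at KO day 3 (SE 0.28, adjusted p = 0.21 by edgeR). Without KO day 4 replicate 3 and KO day 3 replicate 1 the KO day 3 value was -0.98 (adjusted p = 0.040 by edgeR). Of the 2301 exon bases of Junb, 173 overlap Prdx2 on the opposite strand. Without a known strand setting, reads in those bases cannot be told apart. Prdx2 had 1371, 1071 and 693 reads at KO day 4 and 6055, 6860 and 4735 in controls. At KO day 3 it had 4049, 6253 and 7025 reads.

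Jund is the family member that is expressed at a steady level in resting cells and responds least to growth signals. Jund (ENSMUSG00000071076, chr8:70698949-70700616, plus strand) had 148, 137 and 153 CPM at KO day 4 and 118, 98.8 and 117 CPM at KO day 3, against 80.1, 81.8 and 79.0 CPM in controls. The 3 groups did not overlap, and the controls lay within a few CPM of one another. Jund rose at KO day 4 (log2 fold change 0.86, SE 0.14, adjusted p = 0.0019 by edgeR) relative to the bulk of genes; per nuclear count the log2 fold change was 0.35 (adjusted p = 0.080 by edgeR), and by library size alone it was -1.04. The KO day 3 value was 0.47 (SE 0.14, adjusted p = 0.13 by edgeR). Gm11175 covers 877 of the 1668 exon bases of Jund on the opposite strand but had only 0 to 8 reads in any library.

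Ratios taken inside a library do not depend on how libraries are scaled. There were 0.343, 0.419 and 0.352 Fos reads per Jund read at KO day 4 and 0.758, 0.866 and 0.730 at KO day 3, against 3.78, 3.99 and 2.01 in controls. Jund reads thus outnumbered Fos reads in all 6 KO libraries, and Fos reads outnumbered Jund reads in all 3 controls. Jund made up 59.0%, 53.6% and 51.8% of the reads of the 3 Jun genes at KO day 4 and 51.8%, 47.1% and 53.6% at KO day 3, against 27.5%, 28.5% and 36.9% in controls. The 3 Fos genes made up 20.5%, 23.5% and 21% of the reads of both families at KO day 4 and 31.3%, 31.2% and 30.1% at KO day 3, against 54.5%, 56.5% and 45.7% in controls. The KO and control libraries did not overlap in any of these ratios, and the KO times were separate in the first and the last of them. These ratios were set after single genes were known and are given as a description, with no test; unequal change within a library does not show which gene moved.

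**Figure D2:**
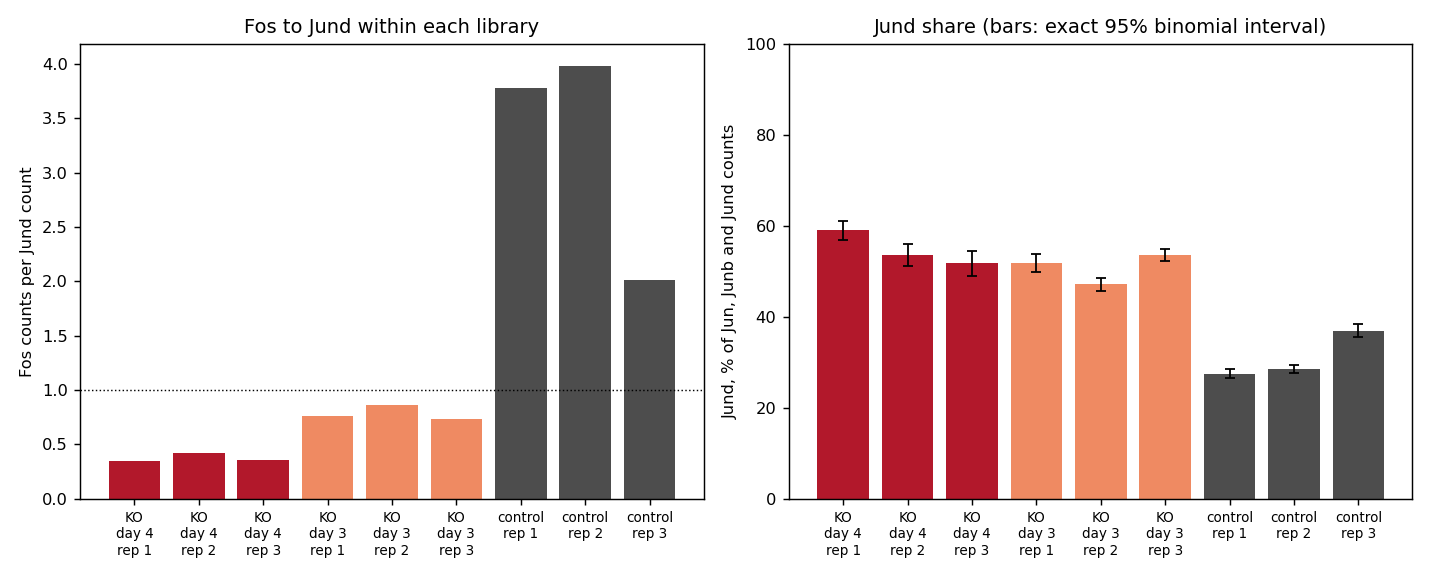
Fos reads per Jund read (left; dotted line at 1) and Jund as a percentage of Jun, Junb and Jund reads with exact 95% binomial intervals (right), for each KO day 4, KO day 3 and control library. Fos per Jund was 0.343 to 0.419 at KO day 4, 0.730 to 0.866 at KO day 3 and 2.01 to 3.99 in controls.

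Per kilobase of exon, which allows levels of different genes to be compared, the order within the families differed between the groups. At KO day 4 Jund came first, at 87.4 ± 4.90 CPM per kb (SD, n = 3), followed by Fos at 22.9 ± 1.40, Jun at 22.8 ± 1.82 and Junb at 21.1 ± 7.94 CPM per kb, which did not differ beyond their spread. At KO day 3 Jund was at 66.7 ± 6.49, Fos at 36.9 ± 1.03, Jun at 24.5 ± 2.14 and Junb at 12.7 ± 2.95 CPM per kb. In controls Fos came first, at 112 ± 38.5 CPM per kb, with Jund at 48.1 ± 0.843 and Jun at 41.9 ± 9.30, neighbours within their spread, and then Junb at 21.8 ± 5.55 CPM per kb. Fosb and Fosl1 stayed low in every group, at 2.33 ± 1.09 and 2.62 ± 1.52 CPM per kb at KO day 4, 1.70 ± 0.550 and 0.156 ± 0.201 at KO day 3, and 5.99 ± 2.33 and 0.344 ± 0.0686 in controls. Jund's place depends on the length used. The same counts divided by the 2878 bases that RefSeq gives the gene, in place of 1668, gave 50.6 CPM per kb at KO day 4. At KO day 3 they gave 38.7 and in controls 27.9. With that length Jund stood above Fos at KO day 4, close to Fos at KO day 3 and below Jun in controls. The annotation used for counting is not given. Reads in the added bases may not have been counted, and then the levels with the longer length are too low.

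Egr1 and Atf3 are transcription factor genes outside the Fos and Jun families. Egr1 has zinc fingers and is induced by growth signals, and Atf3 has a leucine zipper and is induced by many stresses. Egr1 (ENSMUSG00000038418, chromosome 18, 34859823 to 34864984, plus strand) had 40.3, 66.5 and 52.8 CPM at KO day 4 and 42.5, 43.0 and 37.9 CPM at KO day 3, against 113, 111 and 64.2 CPM in controls. One KO day 4 library reached the level of the lowest control, and no KO day 3 library did. Egr1 fell at KO day 4 (log2 fold change -0.85, SE 0.24, adjusted p = 0.027 by edgeR), and this call was lost without KO day 4 replicate 1 (adjusted p = 0.079 by edgeR), KO day 4 replicate 3 (0.058), control replicate 1 (0.098) or control replicate 2 (0.099). The KO day 3 log2 fold change was -1.22 (SE 0.24, adjusted p = 0.056 by edgeR), with an adjusted p of 0.038 by edgeR when KO day 4 replicate 3 was left out of the shared fit.

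Atf3 (ENSMUSG00000026628, chr1:191170296-191218039, minus strand) had 16.9, 25.4 and 27.8 CPM at KO day 4 and 18.2, 13.7 and 12.4 CPM at KO day 3, against 47.4, 47.1 and 20.2 CPM in controls. Control replicate 3 lay inside the KO day 4 range and just above the KO day 3 libraries. The log2 fold change was -0.72 at KO day 4 (SE 0.33, adjusted p = 0.14 by edgeR) and -1.37 at KO day 3 (SE 0.33, adjusted p = 0.090 by edgeR). Without control replicate 3 Atf3 was called at KO day 4 (-1.03, adjusted p = 0.030 by edgeR), and without the 2 libraries that stood apart it was called at KO day 3 (-1.54, adjusted p = 0.047 by edgeR).

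Dusp1 and Zfp36, the genes whose products end the early response, both fell at KO day 4 and kept that call in all 20 alternatives. Dusp1 (ENSMUSG00000024190, chr17:26505590-26562128, minus strand) had 14.9, 20.4 and 5.37 CPM at KO day 4 and 56.4, 45.7 and 55.0 CPM at KO day 3, against 98.5, 98.1 and 60.5 CPM in controls. The 3 groups were fully separate, in the order KO day 4, KO day 3, control from low to high. Its log2 fold change was -2.64 at KO day 4 (SE 0.37, adjusted p = 0.0011 by edgeR), the lowest of the 10, and -0.71 at KO day 3 (SE 0.34, adjusted p = 0.33 by edgeR).

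Zfp36 (ENSMUSG00000044786, chr7:28376784-28380253, minus strand), which encodes tristetraprolin, had 25.4, 31.5 and 23.5 CPM at KO day 4 and 34.3, 31.2 and 28.3 CPM at KO day 3, against 65.7, 74.5 and 43.9 CPM in controls. Both KO groups lay below all controls and overlapped each other. Zfp36 fell at KO day 4 (log2 fold change -1.19, SE 0.22, adjusted p = 0.0036 by edgeR). Its KO day 3 log2 fold change was -0.97 (SE 0.21, adjusted p = 0.077 by edgeR), and the adjusted p was 0.045 by edgeR when KO day 4 replicate 3 was left out.

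**Figure D3:**
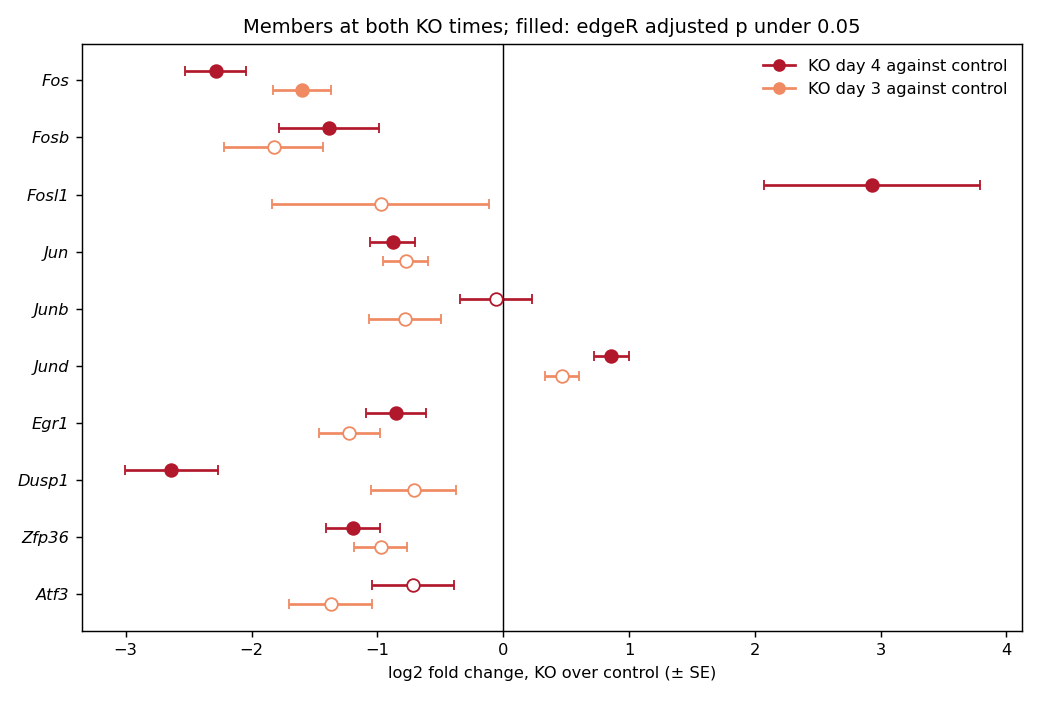
Log2 fold change of each gene, KO over control, with its SE, for KO day 4 and KO day 3; filled points have an edgeR adjusted p under 0.05. Filled points are 6 lower and 2 higher genes at KO day 4. At KO day 3 Fos alone is filled, and 9 of the 10 estimates are below 0. By library size alone 9 were called lower and 0 higher at KO day 4, where the median over all tested genes was -1.95.

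The KO day 3 differences mostly did not pass the test, and 9 of the 10 estimates were below 0. At KO day 3 every library was below every control for 7 of the 10 genes, against 18% of all tested genes, and above for 1, Jund, against 12.1%. At KO day 4 the counts were 4 below and 2 above, against 26.4% and 20.6% of all tested genes. At an unadjusted p under 0.05, 7 of the 10 were lower and 1 was higher at KO day 3 by edgeR, where 2123 of all 13405 genes met that level. DESeq2 called 6 lower and 1 higher at KO day 3, and limma voom with sample quality weights called 7 and 1. Without KO day 4 replicate 3 and KO day 3 replicate 1 edgeR called 6 lower at KO day 3; the leave-one-out counts ran from 0 (without KO day 3 replicate 2 or 3 or control replicate 1 or 2) to 4 (without KO day 4 replicate 3). Over the main fit and all alternatives except leaving out 1 library, 7 to 942 of all genes were called lower at KO day 3 and 2 to 481 higher. Over the leave-one-out fits 0 to 251 of all genes were called lower at that time. Both KO times were set against the same 3 controls, so their fold changes are not independent of each other.

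Set directly against each other, the KO times differed in 2 of the 10 genes. Dusp1 was lower at KO day 4 than at KO day 3 (log2 difference -1.93, SE 0.36, adjusted p = 0.0089 by edgeR) and kept this call in all 20 alternatives, where 6.03% of all tested genes were called lower. Fosl1 was higher at KO day 4 than at KO day 3 (log2 difference 3.90, SE 0.91, adjusted p = 0.021 by edgeR), where 6.52% were called higher; the ratio of pooled levels was 13.4 with a counting interval of 8.69 to 21.51. The Fosl1 call was lost without KO day 4 replicate 2 (adjusted p = 0.075 by edgeR) or KO day 3 replicate 2 (0.078), and Fos passed as lower without control replicate 3 (0.018). Day 4 libraries lay below day 3 libraries for 2 genes, Fos and Dusp1, against 17% of all tested genes, and above them for 2, Fosl1 and Jund, against 15.8%.

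The controls themselves were uneven for these genes. Control replicate 3 held 0.505 times the mean Fos level of controls 1 and 2, 0.449 times for Fosb, 0.427 times for Atf3, 0.574 times for Egr1 and 0.616 to 0.660 times for Junb, Dusp1, Zfp36 and Jun. Jund, at 0.976 times, and Fosl1, at 1.37 times, did not share this gap. Among KO libraries the mast cell marker sum and the members' levels were set side by side: 3 of the 10 (Fosb, Junb and Atf3) ran in the order of that sum at KO day 4, and 3 of the 10 (Junb, Jund and Dusp1) did at KO day 3. Of the KO day 3 libraries, replicate 1 had the highest mast cell sum, and 7 of the 10 genes (Fos, Fosb, Junb, Jund, Dusp1, Zfp36 and Atf3) were highest there. The same orders were not counted over all tested genes, so these counts cannot be read as particular to the 10. KO day 3 replicate 1 also had the fewest counts of all libraries (8400458) and correlated least with its group. The part of mast cell RNA in these levels was not tested.

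Over the 9 libraries, Jun and Zfp36 had the most similar profiles of any pair of the 10 (root mean square difference of centred log2 CPM of 0.183), followed by Egr1 and Atf3 (0.225) and Jun and Egr1 (0.247), while Fosl1 and Dusp1 were farthest apart (2.35). Among 8022 other genes with a mean CPM of at least 5, Ctnnbl1 (0.270), Hscb (0.326) and Bckdha (0.333) were closest to Fos by the same measure. Tmem256 (0.290), Id1 (0.301) and Cnpy4 (0.321) were closest to Dusp1. Id1, for example, averaged 18.6 CPM at KO day 4, 47.0 at KO day 3 and 87.4 in controls. Vcp (0.0840), Uck2 (0.0860) and Ap3s1 (0.0885) were closest to Jund.

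The other bZIP genes did not follow Fos. Of 15 further bZIP genes, many of which encode proteins that can pair with Fos or Jun, 12 were tested. At KO day 4 4 rose, against 11.1% of all tested genes, and 0 fell, against 11.5% (by library size alone 0 and 4). Their median log2 fold change was 1.20. By library size alone the median over all tested genes was -1.95. Atf4, the effector of the integrated stress response, averaged 205 ± 14.2 CPM at KO day 4 and 83.5 ± 6.65 CPM in controls (SD, n = 3 each; log2 fold change 1.29, SE 0.17, adjusted p = 0.00085 by edgeR). Fosl2, which encodes the Fos protein FRA-2, averaged 29.6 ± 2.59 CPM at KO day 4 and 13.9 ± 2.63 CPM in controls (log2 fold change 1.09, adjusted p = 0.0051 by edgeR). Atf7 (log2 fold change 1.82, adjusted p = 0.032 by edgeR) and Mafk (1.20, adjusted p = 0.035 by edgeR) also rose. Atf4 at KO day 3 stood at 113 ± 24.8 CPM and Creb1, a cAMP-responsive activator, at 20.3 ± 15.9 CPM, against 83.5 ± 6.65 and 16.2 ± 3.65 CPM in controls, and neither passed the test.

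The other immediate early genes went both ways. Of 38, 34 were tested. At KO day 4 5 fell, against 11.5% of all tested genes, and 7 rose, against 11.1% (by library size alone 26 and 0). Their median log2 fold change was 0.26. By library size alone the median over all tested genes was -1.95. Ccn1, a secreted matrix protein gene driven by serum response factor and YAP, averaged 3.08 ± 3.58 CPM at KO day 4 and 62.4 ± 31.4 CPM in controls (log2 fold change -4.30, SE 0.66, adjusted p = 0.0016 by edgeR). Klf6, a zinc finger factor gene, averaged 71.0 ± 12.3 CPM at KO day 4 and 20.2 ± 4.85 CPM in controls (log2 fold change 1.81, SE 0.24, adjusted p = 0.00079 by edgeR). Gadd45g, a stress sensor gene (2.43, adjusted p = 0.00091 by edgeR), and Zfp36l1, the paralogue of Zfp36 (1.15, adjusted p = 0.0059 by edgeR), also rose. The other 4 that fell, named after their values were seen, were Rhob, Klf10, Ier2 and Egr2. At KO day 3 Ier2 averaged 108 ± 21.3 CPM and Zfp36l2 103 ± 13.6 CPM, against 133 ± 33.6 and 117 ± 8.77 CPM in controls.

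With TMM scaling, the genes upstream of the early response, and its other brakes, were more often higher than lower at KO day 4. All 27 genes of the MAP kinase cascade and serum response factor were tested. Of these 8 rose, against 11.1% of all tested genes, and 1, Map2k6, fell, against 11.5% (by library size alone 0 and 21). Their median log2 fold change was 0.50. By library size alone the median over all tested genes was -1.95. Per nuclear count, cascade genes called lower outnumbered those called higher, as given below. Hras, the small GTPase gene at the head of the cascade, averaged 77.0 ± 13.7 CPM at KO day 4 and 26.7 ± 2.41 CPM in controls (log2 fold change 1.53, SE 0.21, adjusted p = 0.0011 by edgeR). Srf, which encodes serum response factor, averaged 28.3 ± 7.31 CPM at KO day 4 and 14.8 ± 0.756 CPM in controls (log2 fold change 0.93, adjusted p = 0.017 by edgeR). Map2k4, a kinase gene upstream of JNK (0.81, adjusted p = 0.013 by edgeR), and Mapk14, the p38α gene (1.98, adjusted p = 0.019 by edgeR), rose too. Map2k2 at KO day 3 averaged 156 ± 25.7 CPM and Rps6ka1 119 ± 7.94 CPM, against 127 ± 17.8 and 126 ± 6.94 CPM in controls, and neither passed the test.

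Of the feedback inhibitors of MAP kinase signalling other than Dusp1, most of those tested rose at KO day 4 with TMM scaling. Of 14, 13 were tested. Of these 8 rose, against 11.1% of all tested genes, and 0 fell, against 11.5% (by library size alone 0 and 4). Their median log2 fold change was 1.35. By library size alone the median over all tested genes was -1.95. Spred1, an inhibitor of RAS signalling, averaged 36.1 ± 6.78 CPM at KO day 4 and 14.1 ± 1.94 CPM in controls (log2 fold change 1.35, SE 0.27, adjusted p = 0.0057 by edgeR). The MAP kinase phosphatase genes Dusp8 (3.07, adjusted p = 0.0020 by edgeR), Dusp7 (1.38, adjusted p = 0.0066 by edgeR) and Dusp6 (2.17, adjusted p = 0.0070 by edgeR) rose as well. The 2 with estimates below 0, named after their values were seen, were Spry1 (-1.39, adjusted p = 0.22 by edgeR), at 0 to 5.27 CPM at KO day 4 against 5.34 to 10.6 CPM in controls, and Spry2 (-0.11, adjusted p = 0.91 by edgeR). Dusp1 was lower while its relatives Dusp6, Dusp7 and Dusp8 were higher, with Dusp8 at 8.89 ± 1.20, Dusp7 at 10.4 ± 0.752 and Dusp6 at 9.65 ± 2.19 CPM in KO day 4 libraries. Spred1 at KO day 3 averaged 19.9 ± 6.66 CPM and Dusp16 15 ± 3.55 CPM, against 14.1 ± 1.94 and 15.4 ± 1.07 CPM in controls.

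Heat shock genes, which stress and handling induce along a separate pathway, were mostly not called. Of 12, 11 were tested, with a median log2 fold change of 0.28 at KO day 4. Over all tested genes the KO day 4 median was -0.06, and -1.95 by library size alone. At that time 2 rose, against 11.1% of all tested genes, and 0 fell, against 11.5% (by library size alone 0 and 9). Those that rose were the near-identical Hspa1b (log2 fold change 2.64, adjusted p = 0.014 by edgeR) and Hspa1a (3.15, adjusted p = 0.019 by edgeR), whose reads counting may have split. Hspa8, a constitutive chaperone gene, averaged 1957 ± 100.1 CPM at KO day 3 and Hsp90ab1 1451 ± 99.97 CPM, against 1183 ± 349 and 1465 ± 34.0 CPM in controls, and neither passed the test.

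Over these 5 lists, 97 of 106 genes were tested, and at KO day 3 edgeR called 0 in either direction, with 10 lower and 10 higher at an unadjusted p under 0.05. DESeq2 called 4 lower and 5 higher at KO day 3, and limma voom called 6 and 6. Over the main fit and all alternatives except leaving out 1 library, 7 to 942 of all genes were called lower at KO day 3 and 2 to 481 higher. The day 4 rises in the lists rest on scaling: by library size alone 0 genes in any of the 5 lists were called higher. Per nuclear count the calls were 10 lower and 5 higher immediate early genes, 1 higher bZIP gene, 5 lower and 2 higher cascade genes, 5 higher feedback inhibitors, and 4 lower and 2 higher heat shock genes. The shares of all tested genes given beside each list are those of the main fit. In these 2 scalings the median over all tested genes at KO day 4 was -1.95 by library size alone and -0.55 per nuclear count. Most genes thus stood lower there, and lower calls are not particular to the lists. Single libraries also moved the counts of the main fit. The 4 risen bZIP genes became 2 without KO day 4 replicate 2 or any 1 control, and 8 without the 2 libraries that stood apart. The 5 fallen immediate early genes became 3 without KO day 4 replicate 3, 2 without control replicate 1 and 1 without control replicate 2, and the 7 risen ones became 4 without KO day 4 replicate 2 or 3 and 3 without control replicate 2 or 3. The 8 risen cascade genes became 2 without KO day 4 replicate 2 or control replicate 3, 1 without control replicate 1 and 4 without control replicate 2, and the call of Map2k6 was lost without any 1 library other than KO day 4 replicate 1 and KO day 3 replicate 1. The 8 risen feedback inhibitors became 4 without control replicate 1 or 3, and the 2 risen heat shock genes became 0 without KO day 4 replicate 2 or control replicate 2 and 1 without KO day 4 replicate 3 or control replicate 1.

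**Figure D4:**
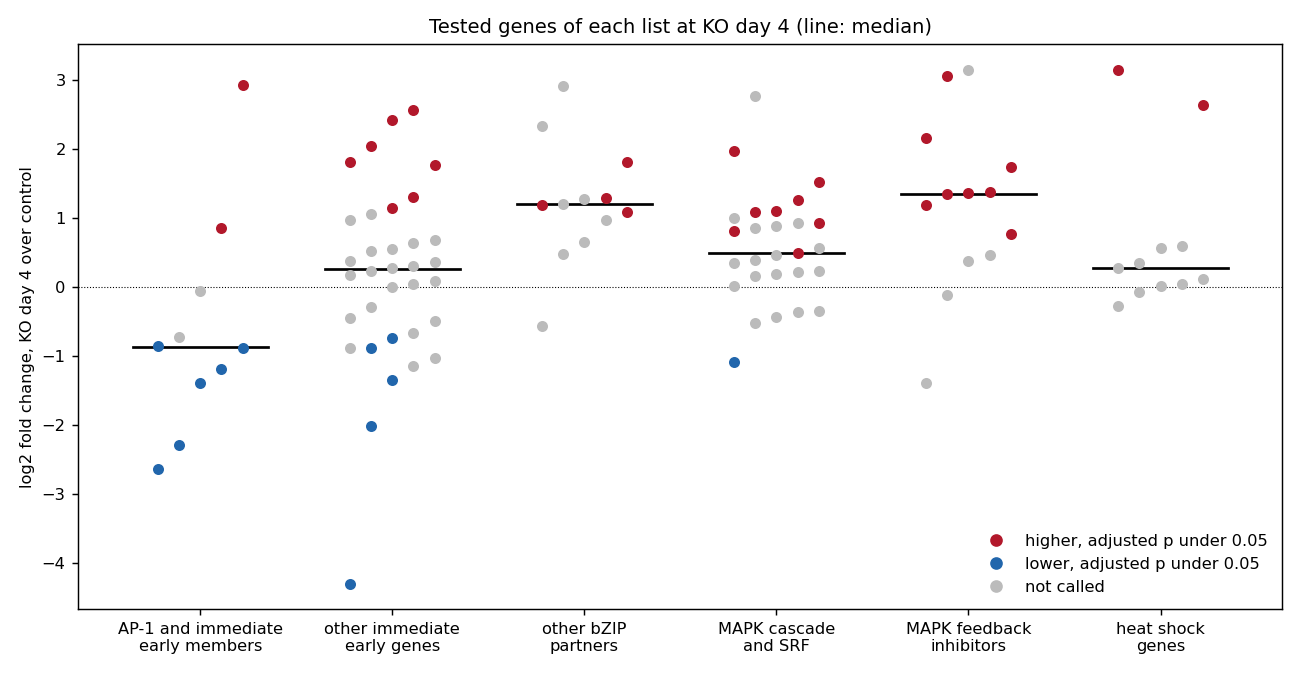
Log2 fold change, KO day 4 over control, of each tested gene in the 10-gene set and the 5 other lists (points; red higher and blue lower at an edgeR adjusted p under 0.05, grey not called), with a line at each list's median. The 10-gene set has a median of -0.87 and the feedback inhibitors one of 1.35; by library size alone no gene of the 5 lists was called higher.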

How the data were processed

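Lgr5-GFP+ cells were sorted from the small intestine, and mRNA libraries were made from DNase-treated total RNA, per the labels' protocols. The authors deposited a table of raw counts, unnormalized, with Ensembl genes in rows and 9 libraries in columns. HISAT2 2.0.4 and GRCm38 were used, per the submitters' processing notes; annotation release, counter and strand setting are not given in the sources used here. Of 57180 identifiers, 51884 were named through GENCODE M21 (GRCm38), whose coordinates are printed, and 5296 stayed unnamed; 6 empty columns were ignored. Promoters came from RefSeq's annotation of GRCm38.p6.

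Groups were read from the titles. The 10 genes, the lists and the tests were chosen with earlier results of these data known. Nothing in the labels says that replicates were separate animals, so p-values reflect only the spread between these libraries, possibly technical. Libraries of a group differed beyond sampling noise in every pair (chi-square over its degrees of freedom, 13.8 to 96.9).

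Counts were tested with edgeR 4.0.16 in R 4.3.3 (quasi-likelihood F-test on all 9 libraries, TMM factors, and filterByExpr with its default minimums of 10 and 15 counts), with Benjamini-Hochberg adjustment over 13405 genes at a threshold of 0.05. CPM are counts per 1e+06 of TMM-scaled library size, with TMM factors of 0.400 to 0.504 at KO day 4, 1.22 to 1.40 at KO day 3 and 1.44 to 1.83 in controls. CPM of nuclear counts leave out mitochondrially encoded genes. Shares have exact binomial intervals at 95%, which cover counting error only, since reads carried no molecular identifiers. The test was checked on simulated counts with known fold changes. These were drawn without the shift in mitochondrial share, so the check does not cover the scaling.

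Named genes are the 10, and in each other list and KO time up to 4 genes with the smallest adjusted p under 0.05, or, where none passed, the 2 with the highest mean CPM, given as values. To these come the 3 genes most like Fos, Dusp1 and Jund. Alternatives were RLE factors, library size alone, mitochondrial genes left out, a minimum mean CPM of 5 or no filter, limma 3.58.1 voom with sample quality weights, DESeq2 1.42.0, only the 2 groups compared, a replicate block, each library left out in turn and both libraries that stood apart left out. Scaling by nuclear counts alone was chosen after seeing the data.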

Additional observations from a re-analysis of the deposited data

Results flagged for a closer look

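Fosl1, which encodes the Fos protein FRA-1, differed between the KO times: it was higher at KO day 4 than at KO day 3 by 3.90 on the log2 scale (edgeR adjusted p = 0.021), from 42, 54 and 11 reads at KO day 4 against 0, 4 and 22 reads at KO day 3.

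Dusp1, the MAP kinase phosphatase gene, also differed between the KO times: its level at KO day 4 relative to KO day 3 was -1.93 on the log2 scale (edgeR adjusted p = 0.0089), with 5.37 to 20.4 CPM at KO day 4 against 45.7 to 56.4 CPM at KO day 3. Both differences were tested directly between the 2 KO groups, and their causes were not tested.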

How the results depend on the processing

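Fos, Jun, Dusp1 and Zfp36 at KO day 4, and Dusp1 between the KO times, kept their direction and call in all 20 alternatives. Scaling mattered most: by library size alone the median over all tested genes stood at -1.95 (log2) for KO day 4, -0.39 for KO day 3 and -1.54 between the KO times, and by nuclear counts alone at -0.55, -0.24 and -0.30. By library size alone 0 of the 10 genes were called higher at KO day 4, 7 lower at KO day 3 and 9 lower between the KO times, and the signs turned for Jund at KO day 4 (-1.04) and, between the KO times, for Fosb (-1.14), Junb (-0.85), Jund (-1.14), Egr1 (-1.16) and Atf3 (-0.90). By nuclear counts alone 1 was called higher at KO day 4, 6 lower at KO day 3 and 2 lower between the KO times. With a minimum mean CPM of 5, Fosl1 was filtered out and not tested, and Jund alone was called higher at KO day 4. At KO day 3, 6 were called lower with no filter, 2 with a minimum mean CPM of 5, 6 with DESeq2, 7 with limma voom, 3 with only the 2 groups compared and 6 without the 2 libraries that stood apart, and DESeq2 and limma voom each called 1 higher. Between the KO times, 2 were called lower with no filter, with DESeq2 and with only the 2 groups compared, and DESeq2 and limma voom each called 2 higher. Over the main fit and all alternatives except leaving out 1 library, 1212 to 10769 of all genes were called lower at KO day 4. At KO day 3 the count was 7 to 942, and between the KO times 280 to 9319. All genes called higher numbered 288 to 2085, 2 to 481 and 189 to 1525 in the same order. The causes were not tested.

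Leaving out each library in turn gave 4 to 7 lower and 1 to 2 higher at KO day 4. It gave 0 to 4 lower and 0 higher at KO day 3, and 1 to 2 lower and 0 to 1 higher between the KO times. In these fits 741 to 1926 of all genes were called lower at KO day 4, 0 to 251 at KO day 3 and 295 to 893 between the KO times. All genes called higher numbered 847 to 1913, 0 to 94 and 353 to 909 in the same order. Same-numbered libraries deviated together weakly at most (r of -0.06 to 0.178), and 6 of 9 libraries were closest to their own number. This does not settle whether the numbers pair the samples. With the replicate block 5 were called lower and 1 higher at KO day 4 and 0 lower at KO day 3. The calls lost were Fosb (edgeR adjusted p = 0.066) and Fosl1 (0.054) at KO day 4 and Fos (0.051) at KO day 3. Depth limits the precision for Fosl1, which had 0 to 54 reads a library.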
